A study of Drosophila melanogaster with 6 samples.

Results

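The group described here comprises 20 genes that stood at 1 FPKM or more in every wild-type library of Drosophila melanogaster S2 cells and averaged under 1 FPKM in cells depleted of Tailor. FPKM is a fragment number corrected for the length of the transcript and the depth of the library. A gene entered the group when each of the 3 WT libraries reached 1 FPKM, when the mean of the 3 CG1091 KO libraries was under 1 FPKM, and when that mean was at most 50% of the WT mean. Symbols starting with Hsp, Cyp, Gst or CR were left out, which removed 2 genes that met the limits. The files list 14210 genes, of which 6981 with other symbols met the WT limit. Membership was therefore set by the same KO and WT values that are given below, and those values describe the genes and test nothing.

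The knockout group, CG1091 KO, comprised 3 libraries, called biological replicates, of S2 cells in which CRISPR/Cas9 was used to deplete Tailor, the product of CG1091. The control group, WT, comprised 3 libraries of wild-type S2 cells, and all 6 libraries were made from polyadenylated RNA. S2 cells are a cultured line of embryonic origin with features of hemocytes, the blood cells of the fly. Tailor is a terminal uridylyltransferase that attaches uridines at the 3' ends of RNAs, and the series title concerns its action on hairpin RNAs. The labels do not say whether the knockout was 1 clone or a pool, nor whether the WT libraries came from separate cultures, so p-values reflect only how these 6 libraries vary, which could be technical variation. CG1091 mRNA itself stood at 22.3, 26.1 and 26.1 FPKM in KO cells, against 50.7, 51.3 and 47.7 FPKM in WT cells (limma log2 change -0.98, SE 0.063, adjusted p = 2.5e-07). A gene-level value gives the amount of that mRNA and not its coding content. Per library, the fragments that can be worked back from the confidence bounds came to 18411809 to 22536308 in KO cells and 20896005 to 22957816 in WT cells.

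Genes at about 1 FPKM lie near the floor of what polyadenylated RNA sequencing of a cell line reports as expressed, and many of them are better known from other tissues. Second-messenger enzymes such as adenylyl cyclases, cytoskeletal motors and formins, homeobox regulators and chemosensory receptors all have well-studied roles in nerve, muscle or sperm cells. A mean of 1 FPKM can stand for little RNA in every cell or for more RNA in a few cells, and bulk libraries cannot tell these apart.

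The 20 genes were low in WT cells and were still detected in KO cells, so the levels describe a reduction and not an absence. Their KO means ran from 0.295 to 0.959 FPKM (median 0.607), against WT means of 1.23 to 6.82 FPKM (median 1.67). None was at 0 in all 3 KO libraries, and 1 gene, CG9865, was listed at 0 in 1 of them. The remaining level ran from 10.5% to 49.5% of WT, with a median of 32.9%. It was at most 25% of WT in 6 genes. CG9865 is 1 of them with its listed 0 included, at 0.544, 0.629 and 0 FPKM in KO libraries, against a WT mean of 2.12 FPKM. In each of the 20 genes the highest KO library lay below the lowest WT library, which was so for 35.5% of the 6981 genes that met the WT limit, and nothing is read from this because the same values chose the genes. Replicates of 1 group varied by a median coefficient of variation of 15.6% in KO and 14.1% in WT libraries, and genes of 1 to 2 FPKM in WT cells had medians of 13.1% and 13.2%.

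**Figure D1:**
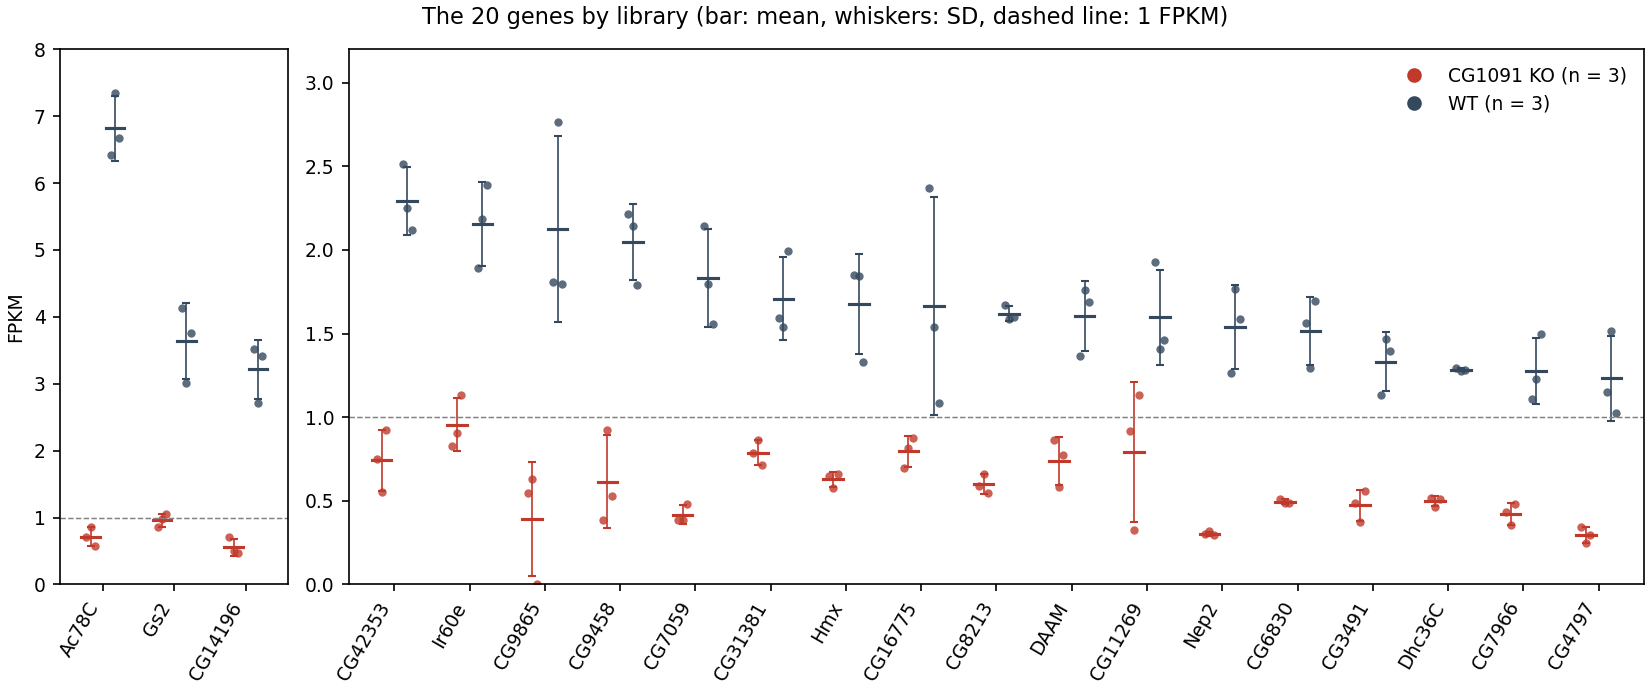
FPKM (y axis, linear) of the 20 genes in the 3 CG1091 KO libraries (red) and the 3 WT libraries (dark blue), with group means as bars and SD as whiskers; the 3 genes with the highest WT means have their own scale. All WT points lie above 1 FPKM, and 3 genes (Gs2, Ir60e and CG11269) have 1 KO point above it.

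Most of the group came from the bottom of the WT range, where the rule lets genes in most easily. Of the 226 genes with a WT mean of 1 to 2 FPKM, 13 (5.75%) were members, and of the 196 genes at 2 to 3 FPKM, 4 (2.04%) were. The other 3 members were 2 of 378 genes at 3 to 5 FPKM and 1 of 834 genes at 5 to 10 FPKM. No gene above 10 FPKM in WT cells reached a KO mean under 1 FPKM. The limit of 1 FPKM on the KO mean asks for a larger fall the higher the WT mean. These shares therefore follow in part from the rule. A KO mean at most 50% of the WT mean was found in 160 of the 6981 genes (2.29%). This share also differed by WT level: 5.75% at 1 to 2 FPKM, 4.59% at 2 to 3, 4.23% at 3 to 5 and 3.0% at 5 to 10 FPKM. It was 1.44% at 10 to 100 FPKM (65 of 4500 genes) and 3.78% from 100 FPKM, ranges that held no member. At 1 to 2 FPKM all 13 genes with such a KO mean were members. Low genes did not fall as a class, because the median KO level of genes at 1 to 2 FPKM was 112.3% of WT. The mirrored rule, with the groups exchanged, picked 81 genes.

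**Figure D2:**
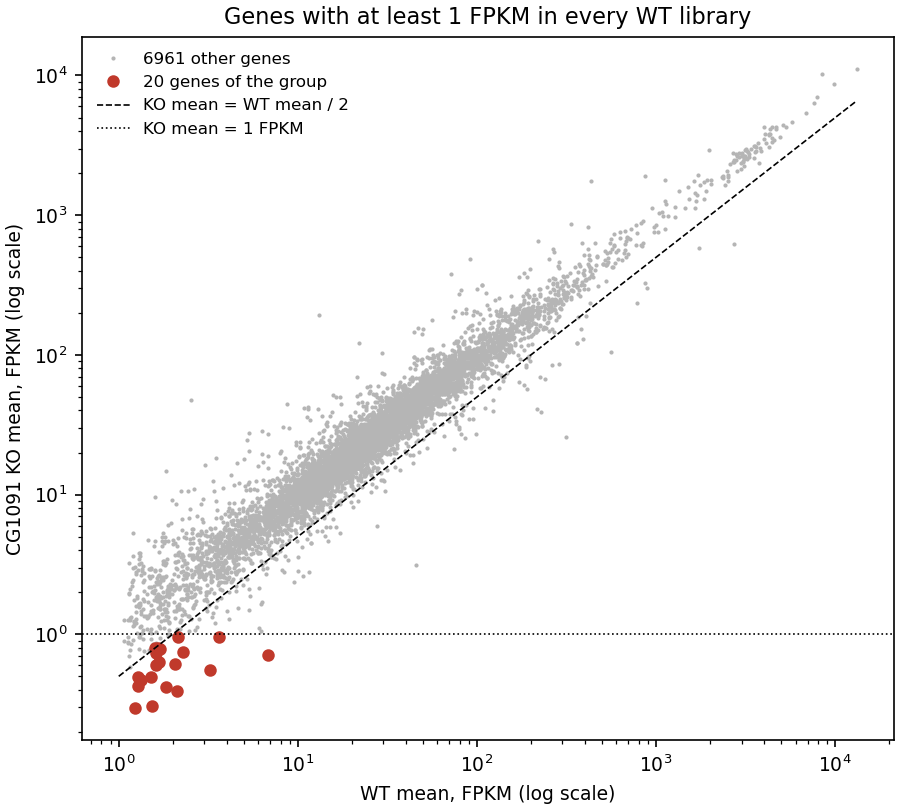
KO mean (y axis) against WT mean (x axis) in FPKM, both on log scales, for the 6981 genes with at least 1 FPKM in each WT library. The 20 genes of the group (red) fill the corner under the lines for a KO mean of 1 FPKM and for 50% of WT, and Ac78C is the red point farthest to the right.

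Ac78C showed the largest difference of the group. It encodes an adenylyl cyclase, the enzyme that makes the second messenger cAMP (FBgn0024150, 3L, 21129547 to 21165026 in the files' own 1-based coordinates, whose genome build the labels and file headers do not state). Ac78C stood at 0.714, 0.856 and 0.578 FPKM in KO libraries, against 6.43, 7.35 and 6.67 FPKM in WT libraries. The KO mean of 0.716 ± 0.139 FPKM was 10.5% of the WT mean of 6.82 ± 0.480 FPKM (SD, n = 3 per group here and below), a 9.52-fold difference. Ac78C was the 1 member above 5 FPKM in WT cells. Among 9 other listed adenylyl cyclase genes, 3 were high enough to test, and they differed in direction: Ac76E fell (3.04 ± 0.183 FPKM in KO cells and 3.82 ± 0.368 FPKM in WT cells, limma adjusted p = 0.0302), rut rose (3.56 ± 0.240 and 2.70 ± 0.437 FPKM, adjusted p = 0.0221), and Ac3 did not pass (23.8 ± 1.15 and 23.0 ± 1.65 FPKM, adjusted p = 0.499). The other 6 averaged under 1 FPKM over the 6 libraries, the lower limit for testing. This set of relatives, like the others below, was put together after the 20 genes were known. Calls among relatives are to be read against all 7259 tested genes, of which 32.1% fell and 30.1% rose in limma, so that a few called genes say little about a family.

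Several members encode metabolic enzymes. Gs2 is a glutamine synthetase, which joins ammonia to glutamate (FBgn0001145, X, 11316888 to 11324228). It stood at 0.854, 0.975 and 1.05 FPKM in KO libraries, against 4.13, 3.01 and 3.76 FPKM in WT libraries. CG7059 encodes a protein of the phosphoglycerate mutase family, which acts in glycolysis (FBgn0038957, 3R, 18215502 to 18218084), and had 0.383, 0.385 and 0.482 FPKM in KO libraries, against 2.14, 1.80 and 1.56 FPKM in WT libraries. Neither gene had a tested relative that fell with it. Gs1, the mitochondrial glutamine synthetase gene, averaged 2.13 ± 0.235 FPKM in KO cells and 1.95 ± 0.0595 FPKM in WT cells (adjusted p = 0.484), and Gdh and CG9674, which encode glutamate dehydrogenase and glutamate synthase, did not pass either. Pglym78, the main phosphoglycerate mutase gene here by level, rose to 151.1 ± 5.74 FPKM in KO cells, against 94.1 ± 2.57 FPKM in WT cells (limma log2 change 0.68, adjusted p = 1.64e-07).

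CG9458, CG7966 and CG9865 are enzyme genes as well. CG9458 belongs to the family of enzymes that lengthen fatty acids (FBgn0037765, 3R, 5644636 to 5645599), and stood at 0.387, 0.925 and 0.528 FPKM in KO libraries, against 2.21, 2.14 and 1.79 FPKM in WT libraries. Of 17 other listed elongase genes, 14 were too low to test, including CG9459, CG16904 and eloF. Baldspot fell (70.1 ± 2.70 FPKM in KO cells and 111.1 ± 6.69 FPKM in WT cells, limma adjusted p = 1.04e-06), while CG31522 and CG31523 did not pass. CG7966 encodes a selenium-binding protein (FBgn0038115, 3R, 8875120 to 8877172), and had 0.435, 0.352 and 0.482 FPKM in KO libraries, against 1.11, 1.23 and 1.49 FPKM in WT libraries. CG9865, named PIG-M in the current annotation, is the mannosyltransferase gene of glycosylphosphatidylinositol anchor synthesis (FBgn0034649, 2R, 17555046 to 17557420). It was listed at 0.544, 0.629 and 0 FPKM in KO libraries, against 1.81, 2.77 and 1.80 FPKM in WT libraries, so a mean over its KO libraries is not given.

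Nep2, CG4797 and CG6830 are the other genes given an enzyme or transport role here. Nep2 encodes a neprilysin, a membrane metallopeptidase that cleaves peptides (FBgn0027570, 3R, 545520 to 557598). Its KO libraries lay close together at 0.302, 0.316 and 0.293 FPKM, against 1.27, 1.77 and 1.59 FPKM in WT libraries, a remaining level of 19.7%. The other 4 listed neprilysin genes averaged under 1 FPKM over the 6 libraries and were not tested. CG4797, named pippin in the current annotation, encodes a transporter of the sugar family (FBgn0034909, 2R, 19699704 to 19705849), and had 0.341, 0.248 and 0.296 FPKM in KO libraries, against 1.15, 1.52 and 1.03 FPKM in WT libraries. Of 13 other sugar transporter genes only 2 could be tested, and both rose, as 30.1% of all tested genes did: Tret1-1, a trehalose transporter gene, with 32.6 ± 0.801 FPKM in KO cells and 27.7 ± 0.612 FPKM in WT cells (adjusted p = 0.00134), and sut1 with 3.72 ± 0.453 and 2.05 ± 0.127 FPKM (adjusted p = 0.000208, both in limma). CG6830, of a family of kinase-like genes (FBgn0037934, 3R, 7506691 to 7510062), stood at 0.511, 0.489 and 0.485 FPKM in KO libraries, against 1.56, 1.29 and 1.69 FPKM in WT libraries.

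The cytoskeletal members were DAAM and Dhc36C. DAAM is a formin, a protein that assembles unbranched actin filaments (FBgn0025641, X, 1183746 to 1216427), and had 0.864, 0.582 and 0.773 FPKM in KO libraries, against 1.36, 1.76 and 1.69 FPKM in WT libraries. Dhc36C is a heavy chain of axonemal dynein, the motor of cilia and flagella (FBgn0013810, 2L, 17501467 to 17525515), and had 0.517, 0.463 and 0.512 FPKM in KO libraries, against 1.29, 1.27 and 1.28 FPKM in WT libraries. Both were reduced less than the median of the group, to 46.1% and 38.7% of WT. Of the 4 other listed formin genes, all tested, 1 rose and 0 fell, where 30.1% of all tested genes rose and 32.1% fell. The gene that rose was form3 (1.95 ± 0.109 FPKM in KO cells and 1.15 ± 0.0816 FPKM in WT cells, limma adjusted p = 0.00201), and dia, capu and Fhos did not pass (adjusted p = 0.377, 0.0676 and 0.351). Of 9 other dynein heavy chain genes only Dhc64C, the cytoplasmic motor, was high enough to test, and it fell (28.0 ± 3.03 FPKM in KO cells and 34.2 ± 1.87 FPKM in WT cells, adjusted p = 0.00631).

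Hmx and Ir60e encode a regulator and a receptor. Hmx is a homeobox transcription factor of the NK type (FBgn0264005, 3R, 13384652 to 13394126), and stood at 0.648, 0.578 and 0.663 FPKM in KO libraries, against 1.85, 1.84 and 1.33 FPKM in WT libraries. Of 12 other NK-type genes, NK7.1 was the 1 that could be tested, and it rose (31.9 ± 1.07 FPKM in KO cells and 18.7 ± 0.336 FPKM in WT cells, limma log2 change 0.74, adjusted p = 2.94e-07). Ir60e is an ionotropic receptor of the chemosensory family (FBgn0035019, 2R, 20417140 to 20418795), and had 0.827, 0.905 and 1.13 FPKM in KO libraries, against 1.89, 2.19 and 2.39 FPKM in WT libraries. Of 58 other genes with ionotropic receptor symbols, 4 were tested. Ir7g fell (20.9 ± 2.81 FPKM in KO cells and 29.1 ± 0.293 FPKM in WT cells, adjusted p = 0.000449) and Ir94d fell (1.05 ± 0.0484 and 1.61 ± 0.262 FPKM, adjusted p = 0.0185), and Ir62a and Ir76a did not pass.

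For 7 members no role is assigned here. CG14196 was the largest difference among them (FBgn0031002, X, 19130092 to 19135873), with 0.703, 0.498 and 0.464 FPKM in KO libraries, against 3.52, 2.71 and 3.42 FPKM in WT libraries. Its remaining level of 17.3% was the second lowest of the group. CG8213 (FBgn0033359, 2R, 4856841 to 4873063) had 0.591, 0.662 and 0.546 FPKM in KO libraries, against 1.67, 1.58 and 1.60 FPKM in WT libraries. CG3491 (FBgn0028887, 2L, 14924735 to 14930576) had 0.487, 0.372 and 0.559 FPKM in KO libraries, against 1.13, 1.47 and 1.396 FPKM in WT libraries. In both of these, as in Ac78C, CG14196, CG42353 and Nep2 among others, the gap between the groups was wider than the range within either. Nothing is read from that gap, because the same values chose the genes. CG42353 (FBgn0259699, X, 15987092 to 15998945) had 0.752, 0.554 and 0.920 FPKM in KO libraries, against 2.52, 2.25 and 2.12 FPKM in WT libraries. CG31381 (FBgn0043799, 3R, 20702790 to 20704549) had 0.784, 0.862 and 0.716 FPKM in KO libraries, against 1.59, 1.54 and 1.99 FPKM in WT libraries. Both CG42353 and CG31381 overlap a more abundant gene on the same strand. CG16775 (FBgn0036767, 3L, 17879048 to 17879745) had 0.696, 0.816 and 0.875 FPKM in KO libraries, against 2.37, 1.54 and 1.08 FPKM in WT libraries, and CG11269 (FBgn0034700, 2R, 18026447 to 18026770) had 0.918, 0.325 and 1.13 FPKM in KO libraries, against 1.93, 1.41 and 1.46 FPKM in WT libraries.

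The number of fragments behind these values differed widely. Fragment numbers were recovered from the width of each confidence interval, and they came out whole, within 0.02, in all 6 libraries for 8 of the 10 members with 1 transcript in the files. CG3491 rested on 175 fragments over the KO libraries and 546 over the WT libraries, CG14196 on 76 and 480 in the same order. Others had far fewer. CG16775 rested on 32 KO and 70 WT fragments, CG9458 on 30 and 103, and CG7966 on 40 and 134. CG11269 is 324 nt long and rested on 5, 2 and 6 fragments in KO libraries, against 11, 8 and 9 in WT libraries, 13 against 28 in all. Ac78C, with 4 transcripts, had effective numbers of 68.1 to 98.8 per KO library and 791.8 to 936.9 per WT library. For CG31381 the bounds gave values of 0.5 to 0.6 per KO library and 1.1 to 1.4 per WT library. Ir60e, with a similar span and similar KO FPKM, rested on 27, 34 and 36 fragments in KO libraries. The values of CG31381 are therefore not read as fragment numbers. Its estimate carries the status LOWDATA in the files, so its FPKM is uncertain.

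**Figure D3:**
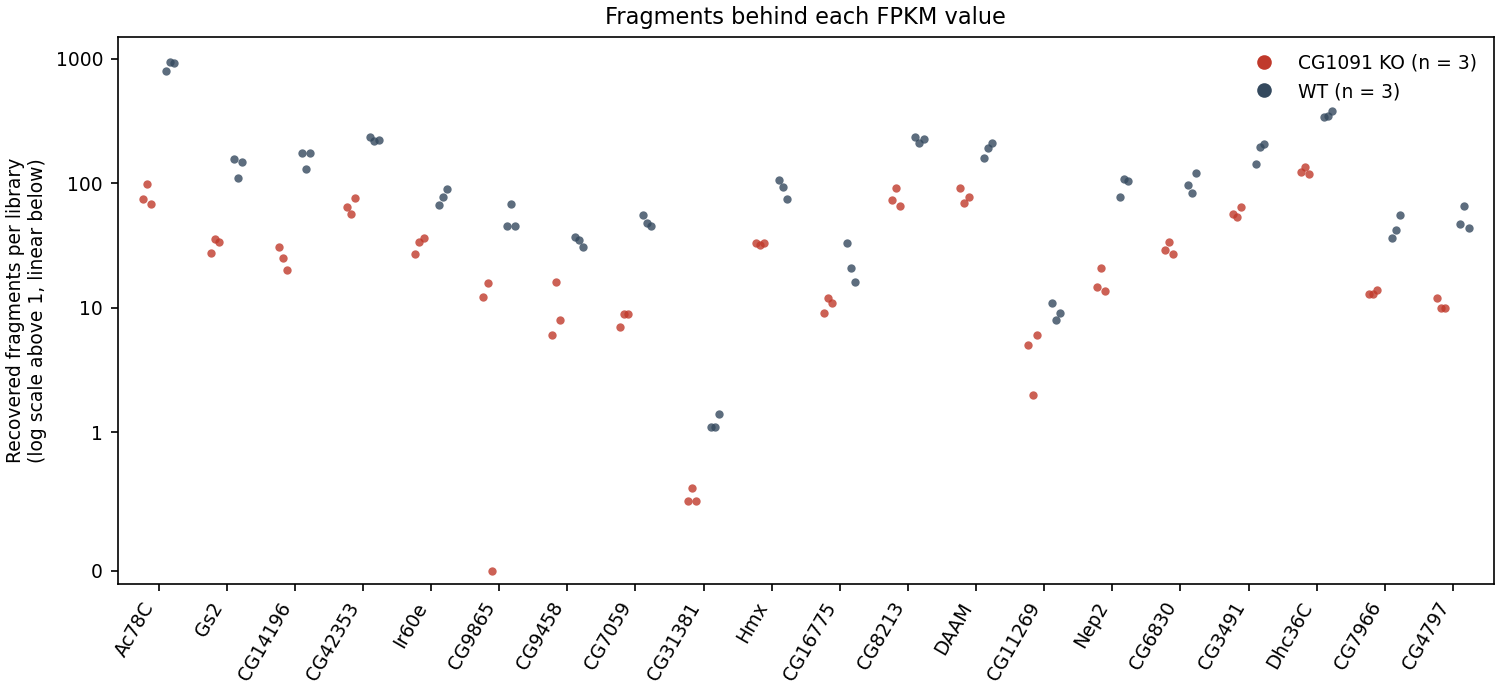
Fragments worked back from the confidence bounds (y axis, log scale above 1 and linear below) for each of the 20 genes in the 3 CG1091 KO libraries (red) and the 3 WT libraries (dark blue). CG31381 (status LOWDATA) lies near 1 in all libraries, which is not read as a fragment number, CG11269 between 2 and 11, and Ac78C between 68.1 and 936.9.

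Other listed genes overlap 9 of the 20 spans, and 4 members share their strand with an expressed partner. CG42353 shares 3608 nt with CG42354 on the same strand, a gene at 84.3 ± 3.33 FPKM in KO cells and 81.3 ± 0.966 FPKM in WT cells (limma adjusted p = 0.304). CG9865 lies entirely within CG42380 on the same strand, at 18.9 ± 0.899 and 19.8 ± 0.784 FPKM (adjusted p = 0.352). The whole span of CG31381 lies within CG11089 on the same strand, and CG11089 fell, with 6.03 ± 0.771 FPKM in KO cells and 11.4 ± 0.490 FPKM in WT cells (log2 change -0.82, adjusted p = 8.61e-06). CG11269 lies within the span of a, a gene that also fell (5.30 ± 0.0493 FPKM in KO cells and 6.82 ± 0.530 FPKM in WT cells, adjusted p = 0.00389). How fragments shared by such pairs were divided is stated neither in the labels nor in the file headers, and these 4 members are uncertain for that reason.

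The authors' deposited table of normalised counts holds a row for 17 of the 20 genes and none for CG9865, CG31381 and CG42353. Each of these overlaps a gene on its own strand, but so do CG11269 and DAAM, which have rows. The authors' deposited table was made from the same 6 libraries, so it shows how far the values depend on counting and is no separate test. In the authors' deposited table Ac78C averaged 88.8 in KO cells and 904.2 in WT cells (9.82%). Nep2 averaged 17.7 and 94.3 there (18.8%), in the authors' deposited table of group means. The KO mean was at most 50% of the WT mean in 16 of the 17, against 10% of all 11643 genes in the authors' deposited table. Likewise 16 of the 17 were lower at an adjusted p under 0.05, against 18.3% of all genes in the authors' deposited table. The exception in both was CG11269, with 6.94 in KO cells and 9.38 in WT cells (74.1%, adjusted p = 0.787 in the authors' deposited table).

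**Figure D4:**
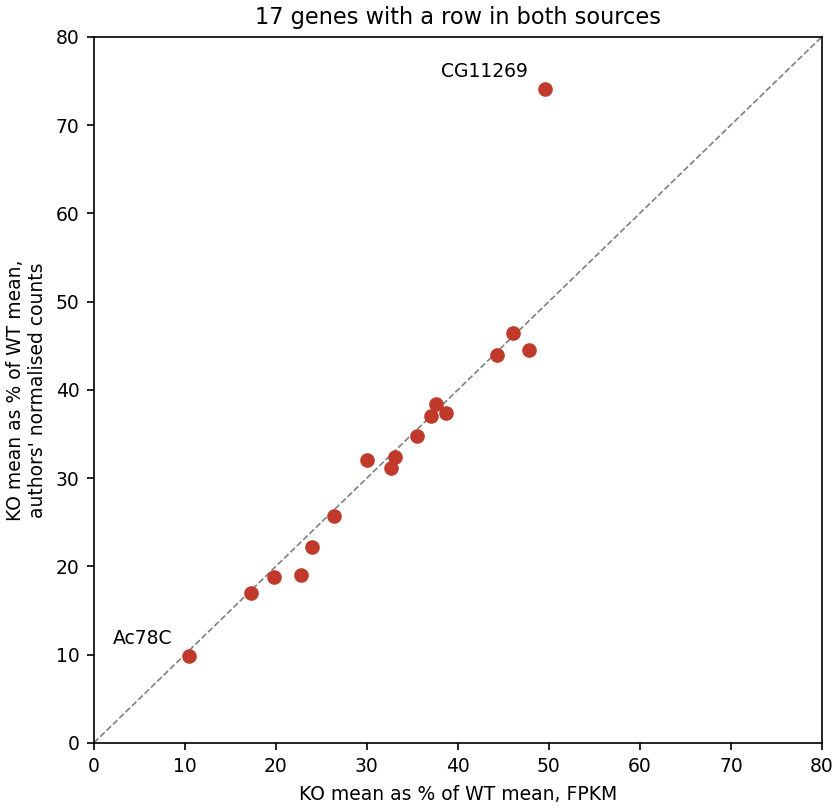
KO mean as a percentage of the WT mean for the 17 genes with a row in both sources, from FPKM (x axis) and from the authors' deposited table of normalised counts (y axis); the dashed line marks equal values. The points follow the line from Ac78C at 10.5% and 9.82% upward, and CG11269 stands off it at 49.5% and 74.1%.

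Genes near the limits show how much the list owes to where the limits lie. Taf12L was reduced to 4.56% of WT, further than any member, but its lowest WT library was 0.977 FPKM. CG10621 was reduced to 17.1% of its WT mean of 6.20 FPKM and was left out by a KO mean of 1.06 FPKM. Neither is counted in the group. CG9925 and LysX had lowest WT libraries of 0.941 and 0.868 FPKM, and gsb and HisCl1 had KO means of 1.06 and 1.07 FPKM. Just inside were CG4797, CG16775 and CG7966, whose lowest WT libraries were 1.03, 1.08 and 1.11 FPKM. Gs2 and Ir60e had KO means of 0.959 and 0.955 FPKM, and the next was CG16775 at 0.796 FPKM. On the third limit CG11269, CG16775 and DAAM lay inside at 49.5%, 47.8% and 46.1% of WT, and pgant4, osp and FucTD lay outside at 51.1%, 51.9% and 52.7%.

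Leaving out 1 library at a time gave 19 to 26 genes, of which 17 to 20 were among the 20. In all 6 of these lists 14 members were present, and the others (CG11269, CG16775, CG31381, DAAM, Gs2 and Ir60e) were missing from at least 1. The library left out gives a value the rule had not used. Without KO replicate 1 the rule picked 26 genes, and that library was under 1 FPKM in 17 of them. The count was 19 of 23 for KO replicate 2 and 18 of 22 for KO replicate 3. In the left-out WT libraries 18 of 19, 20 of 22 and 19 of 21 picked genes were at 1 FPKM or more (replicates 1, 2 and 3). Most picks lay on the same side in the unused library, and between 1 and 9 per list did not. Libraries of the same group were closely alike, with correlations on log2(FPKM + 1) of at least 0.9965 in KO and 0.9962 in WT. These counts therefore describe likeness of replicates and say nothing about the difference between KO and WT. KO replicate 3 was the library above 1 FPKM in each of the 3 members that had such a value.

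Members were spread over the genome. The group held 7 genes on 3R, 5 on 2R, 4 on X and 2 each on 2L and 3L, which is 35.0%, 25%, 20%, 10% and 10% of it. Of the 6981 genes of the WT limit 24.4% lay on 3R, 20% on 2R, 17.3% on X, 18% on 2L and 19.1% on 3L. No member was next to another. The closest pair, CG9865 and CG11269, lay 0.469 Mb apart.

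Neighbouring genes high enough to test did not share the reduction as a rule. Genes that overlap a member were not counted as neighbours. The nearest gene on each side of the 20 members gave 40 genes outside the group. Of these, 20 averaged under 1 FPKM and were not tested, so low neighbours are not covered. The other 20 averaged at least 1 FPKM and were tested. In limma 3 of these 20 fell, where 32.1% of all 7259 tested genes did, and 6 rose, where 30.1% of all did. Their median log2 change was -0.00035, against -0.00872 over all tested genes. Without WT replicate 1 the number that rose was 3. The neighbour with the largest fall was CG42857, next to CG9458 at 636 nt, with 32.3 ± 0.441 FPKM in KO cells and 76.4 ± 3.30 FPKM in WT cells (log2 change -1.22, adjusted p = 2.45e-09). The other 2 were pic beside CG7966 (log2 change -0.27, adjusted p = 0.000185) and CG6412 beside Dhc36C (log2 change -0.27, adjusted p = 0.000481). With the second gene on each side added, 9 of 36 fell and 11 rose. Among those added were asparagine-synthetase, beyond the gene next to Ac78C, with 84.6 ± 3.26 FPKM in KO cells and 188.4 ± 10.01 FPKM in WT cells (log2 change -1.14, adjusted p = 5.83e-09), and CG7408, on the far side of the gene next to CG16775, with 14.6 ± 0.555 and 26.0 ± 0.998 FPKM (log2 change -0.79, adjusted p = 3.9e-07). Those with the smallest p-values in the other direction were NtR, near CG11269 (5.61 ± 0.613 FPKM in KO cells and 2.25 ± 0.0557 FPKM in WT cells, log2 change 1.02, adjusted p = 2.98e-06), and CG43427, near Nep2 (15.1 ± 0.744 and 9.95 ± 0.349 FPKM, log2 change 0.55, adjusted p = 1.54e-05).

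**Figure D5:**
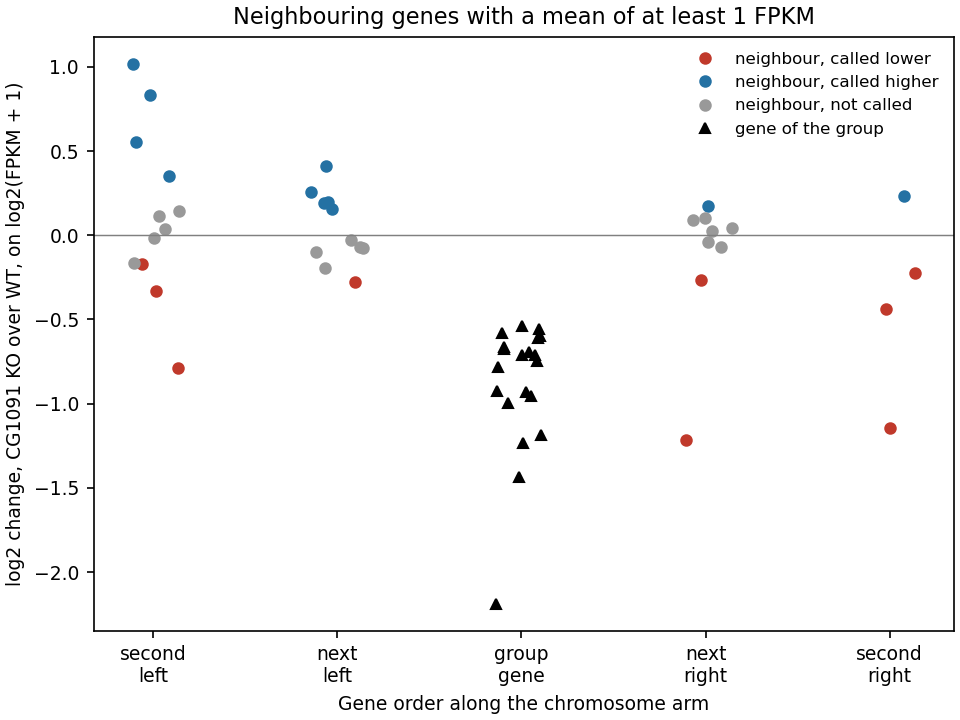
Log2 change of CG1091 KO over WT on the log2(FPKM + 1) scale (y axis) for the 20 genes of the group (black triangles) and for the genes next to them and next but 1 on either side (x axis, left or right along the arm) with a mean of at least 1 FPKM. Neighbours called lower in limma are red, called higher blue and not called grey, and they lie on both sides of 0.

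All 19 members that matched the BDGP6 annotation by identifier are protein-coding, and CG8213 was not matched. The longest coding sequence had a median of 1716 nt (321 to 12195 nt), against 1365 nt over the 6614 genes of the WT limit with a value, and the median number of exons was 5 against 4. Dhc36C was at the upper end with 12195 nt and CG11269 at the lower end with 321 nt. None of the 19 spans held a microRNA gene of that annotation, which lists 262. Of the 20 symbols, 13 (65.0%) were bare CG numbers, against 47.4% of the genes of the WT limit. The genes of the WT limit had a median WT mean of 22.5 FPKM, against 1.67 FPKM in the members. These comparisons of length, exons and symbols are therefore not matched for level.

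Apart from the bare CG numbers, families and cell type lists held few of the members. Of 18 families defined by symbol, 2 held any: the bare CG numbers and the chemosensory receptors, where Ir60e was 1 of 11 genes that met the WT limit. Of 15 lists of cell type markers and pathways, 1 held a member, the glial list with Gs2. The 15 lists hold 193 of the 7259 tested genes, so 1 member in them says little about the group. Of all 7259 tested genes 30.1% rose and 32.1% fell, and 62.1% were called in 1 direction or the other. Of the 7 tested genes of the glial list 5 rose and 2 fell, among them Gs2, which these values chose. Those that rose were Gli, Nrx-IV, loco, moody and Tret1-1, and nrv2, a sodium pump subunit gene, fell with Gs2 (55.5 ± 2.11 FPKM in KO cells and 80.8 ± 3.38 FPKM in WT cells, limma adjusted p = 2.93e-06). The glial regulator repo was at or near 0 in all 6 libraries. Summed over the 13 genes the glial list ran from 235.7 to 244.6 FPKM in KO libraries and from 217.4 to 225.6 FPKM in WT libraries. The hemocyte list, which holds markers of the cell type this line resembles, summed to 1937 to 2117 FPKM in KO libraries and 2177 to 2451 FPKM in WT libraries, with 7 of 14 tested genes higher and 5 lower. Over the 15 lists together 62 of 193 tested genes fell and 77 rose. All these counts are to be read beside the 32.1% of all tested genes that fell and the 30.1% that rose. The part of the listed genes in the levels of the 20 genes was not tested.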

How the data were processed

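Polyadenylated RNA of S2 cells was sequenced in 3 CG1091 KO and 3 WT libraries. Per the submitters' processing notes, the tools included Cufflinks 1.3.0 and TopHat 1.4.1 (with BWA 0.6.1), and DESeq 1.10.1 and HTSeq 0.6.1p1. No genome build is given there or in the file headers. The deposited gene tables hold FPKM values with confidence bounds for 14210 genes per library. The authors' deposited comparison holds normalised counts, here treated as a signal, with the ratio (fold) between the groups, its log2 value and p-values for 11643 genes; its direction was turned so that every change is KO over WT.

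The rule was applied to the FPKM tables. The 7259 genes averaging 1 FPKM or more over all libraries were tested with limma 3.58.1 in R 4.3.3 on log2(FPKM + 1), with trend and robust settings, and Benjamini-Hochberg adjusted p under 0.05 counted as a call. Fold changes on this scale understate the change of low genes. Fragment numbers were recovered from the width of the deposited confidence bounds, and were whole, within 0.02, in 92.72% to 93.31% of the values under 30 in genes with 1 transcript. They stand for counting error only. The test was also run on simulated data with independent noise in each library. That setting cannot show how technical replicates or a single clone would affect the calls. Start positions were raised by 1 to be 1-based, and genes were matched by identifier to the BDGP6 annotation. Python 3.11.15, pandas 2.3.3 and matplotlib 3.10.9 were used for tables and figures.

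The members and lists were chosen with earlier results of these data known. All members are named, with CG1091, the 3 genes on either side of each limit, the 5 neighbours with the smallest adjusted p, overlapping genes and up to 3 called genes of a list that holds a member. The families of related genes were put together after the members were known. Replicate numbers were not used as pairs, because the correlations of same-numbered libraries' deviations were -0.0495, 0.00286 and -0.032. Alternatives changed the pseudocount, the filter, the scaling, the limma settings, the unit, the limits of the rule and the libraries. No sequences were analysed here.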

Additional observations from a re-analysis of the deposited data

How the results depend on the processing

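The rule picked 6 genes with a KO mean of at most 25% of WT and 4 with every WT library at 2 FPKM or more, against 20 as reported. CG9865, listed at 0 in 1 KO library, was among the 6. It picked 19 with the estimate status OK in all libraries, 17 with every KO library under 1 FPKM, 20 after median scaling and 19 to 26 without 1 library. In limma 4509 genes were called, and 291 with a 2-fold limit added. Without 1 library 3987 to 4422 were called, and the other settings gave 4012 to 4541. Of the nearest neighbours, 3 of the 20 tested fell, and 3 to 4 did without 1 library. With no filter on low values 5 fell and 3 rose, where over all genes 2233 fell and 2308 rose. With 2 genes on each side 9 of 36 tested fell (25%), against 32.1% of all tested genes. As reported 6 rose, and 3 to 6 did without 1 library, 3 without WT replicate 1. The cause of these changes was not tested. The fixed lists held 139 called genes of 193 tested, where 62.1% of all tested genes were called. They held 112 to 157 under the alternatives. Counts per list and direction stayed within 1.5 times in 448 of 480 cases and moved in 32. No scaling moved the median of all genes by over 0.1 on the log2 scale. With the replicate number as a block 4393 genes were called (2289 lower and 2104 higher), 3 neighbours fell and 6 rose, and the lists held 132 called genes. The planned search for promoter motifs and its alternative strand setting were not run.

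Few fragments lie behind CG11269, with 13 in KO and 28 in WT libraries. CG31381 has the status LOWDATA, and the 0.5 to 1.4 per library from its bounds are not read as fragment numbers. Members that overlap an expressed gene on their own strand (CG9865, CG31381, CG42353 and CG11269) are uncertain. Gene-level FPKM does not tell transcripts apart. With 3 libraries in each group and WT cultures that may not be separate, a clone and Tailor loss cannot be told apart.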
